A study of Mus musculus with 6 samples.

Results

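Mitochondria make few of their own proteins, and the rest are encoded in the nucleus, made in the cytosol as precursors and carried through the organelle's membranes by protein machines. The genes of these machines, of the chaperones that fold the imported chains and of the peptidases and proteases that trim or remove them, are described here in cultured beige adipocytes, the fat cells of white adipose tissue that can burn fuel for heat. They comprise every gene whose name starts with Tomm or Timm followed by a digit (20 genes) and 27 further genes of import, folding and quality control. All 47 were among the 13962 genes of the count table, and all 47 passed the filter on low counts that left 13192 genes for testing.

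Precursors enter through the translocase of the outer membrane (TOM), and then part ways. Proteins for the matrix cross the inner membrane through the TIM23 channel, pulled in by a motor built around the mitochondrial Hsp70; carrier proteins travel with small TIM chaperones to the TIM22 complex; barrel proteins go back into the outer membrane through the sorting and assembly machinery (SAM); and small cysteine-rich proteins are trapped between the membranes by a disulphide relay. Brown and beige fat cells are known for numerous mitochondria rich in respiratory enzymes, most of which are imported.

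The cells came from preadipocytes of mouse inguinal white fat on a C57BL/6 background, made immortal with the large T antigen, and all 6 samples carried floxed Tle3 alleles and a tamoxifen-activated Cre (genotype TLE3F/F CreERT2). All were given insulin (20 nM) and T3 (1 nM) and a differentiation cocktail of rosiglitazone (1 uM), indomethacin (0.125 mM), dexamethasone (0.5 uM) and isobutylmethylxanthine (0.5 mM). On day 4 they received ethanol (control, n = 3) or 500 nM 4-hydroxytamoxifen (labelled knockout, n = 3) for 24 hours, and they were collected on day 10. Neither the promoter that drives Cre, nor the number of animals or lines behind the cells, nor whether replicates were separate cultures is given in the sources used here, so p-values measure the spread between these samples, which may be technical. Cells without Cre that had received tamoxifen were not analysed here, and responses to tamoxifen or to active Cre cannot be told apart from a response to the deletion.

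Libraries held 14606228 to 19294632 counts, from which CPM values (counts scaled to library size with TMM factors) were computed. Tle3, the floxed gene and a Groucho-family co-repressor, was not lower where its knockout was labelled: it stood at 151.4, 151.3 and 152.1 CPM in controls 1, 2 and 3 and at 286.9, 288.9 and 294.2 CPM in knockout 1, 2 and 3 (1.91-fold, adjusted p 3.54e-07). Counts over a whole gene can come from exons outside the deleted stretch and so do not check the labels. Directions below are those of the libraries labelled knockout against the controls. Markers of cell types were looked up. All 12 adipocyte and all 12 brown and beige markers were in the table, but presence there takes few counts and does not establish identity. In the controls Fabp4 was at 4514 ± 657 CPM and Ucp1 at 70.9 ± 8.35 CPM. Dio2 and Elovl3, also brown and beige markers, were at only 1.08 ± 0.355 and 4.22 ± 0.785 CPM. Of macrophage and endothelial marker names, 4 of 10 and 5 of 8 were listed, at 5.48 to 8.16 and 5.89 to 8.36 CPM summed per library.

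Import and chaperone genes were higher in the libraries labelled knockout, by small amounts and across nearly every step of the pathway. Of the 47 genes, 22 rose and 0 fell at an adjusted p under 0.05 (edgeR's quasi-likelihood test with Benjamini-Hochberg adjustment over all tested genes, as throughout), where 6.91% of all tested genes rose and 5.44% fell. The median log2 fold change was 0.20 over the 47 genes, beside −0.00 over all tested genes, and the largest rise was 1.33-fold. At an unadjusted p under 0.05, 33 were higher and 0 lower (14.5% and 13.4% of all tested genes), and DESeq2 and limma-voom also called 0 lower. In 33 genes every library labelled knockout was above every control, against 16.0% of all tested genes, and in 0 genes the order was the opposite, against 15.8%. The count of rises was 12 without knockout 2 and 8 without knockout 3, and it ran from 16 to 25 when each of the other libraries was left out in turn. The 8 genes that passed in all 14 alternative analyses were Tomm5, Mtx1, Mtx2, Chchd4, Timm17a, Timm50, Dnajc19 and Hspe1.

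**Figure D1:**
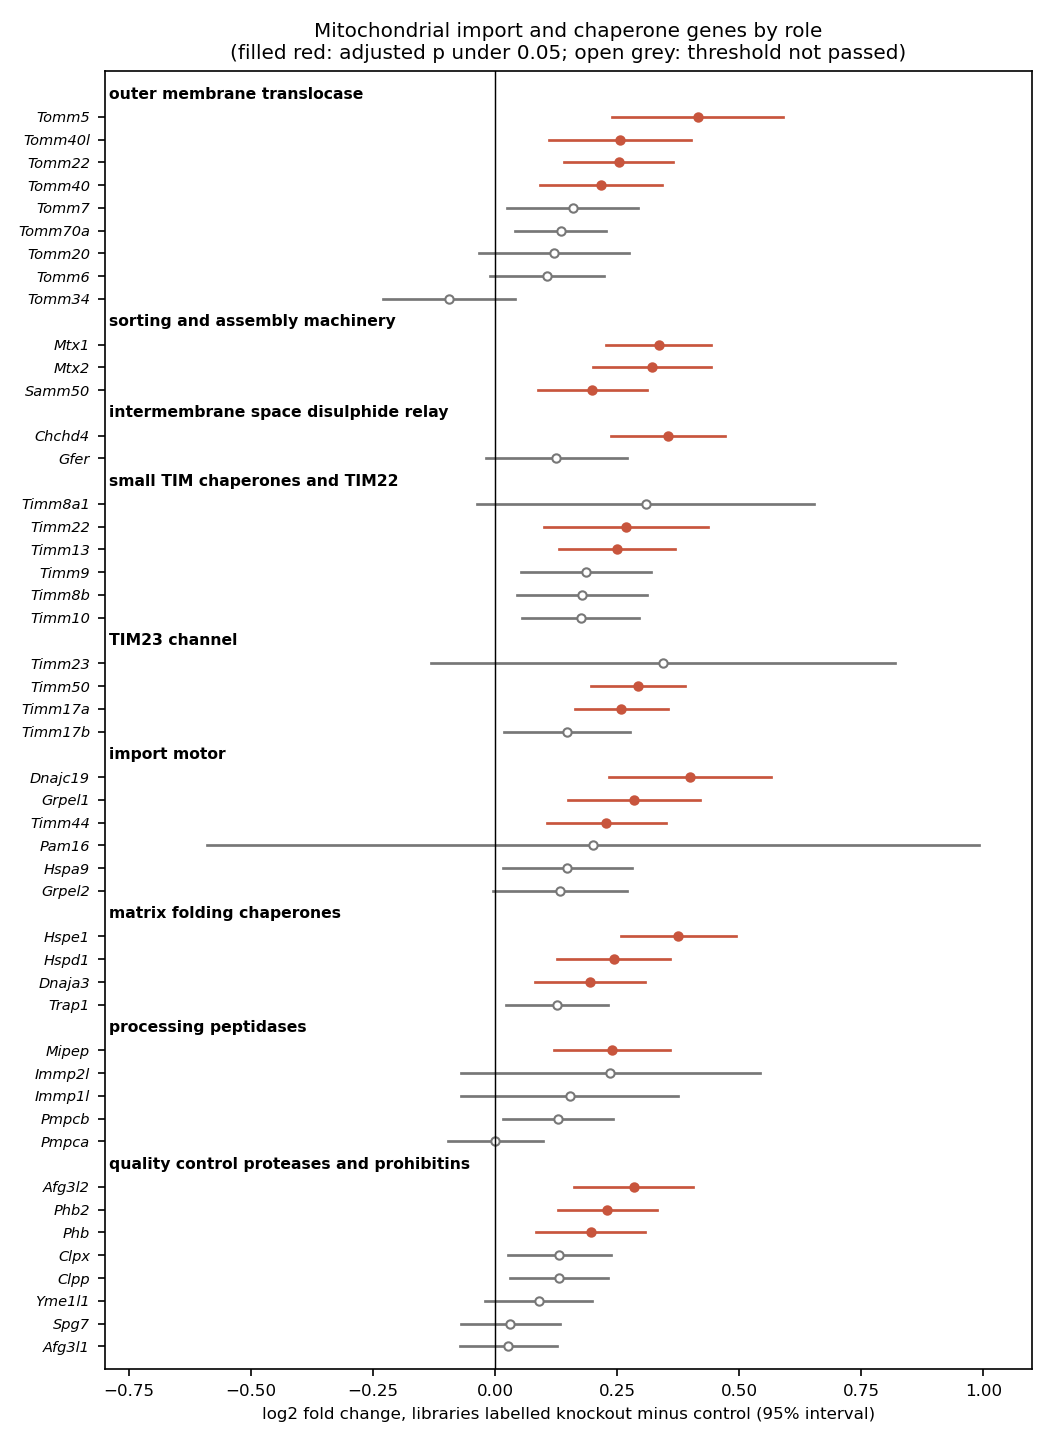
Fitted log2 fold change (x axis, libraries labelled knockout minus control, with 95% interval) of the 47 import and chaperone genes, grouped by role; filled red points passed the adjusted p threshold of 0.05. All points but Tomm34 lie at or to the right of 0, and 22 are filled.

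Within the groups the libraries were not equal. The mean deviation of the 47 genes from their own means over the 6 libraries, on the log2 CPM scale, was −0.08, −0.06 and −0.16 in controls 1, 2 and 3 and 0.04, 0.13 and 0.13 in knockout 1, 2 and 3. Control 3 held the lowest value of 37 of the 47 genes, where it held that of 24.0% of all tested genes, and knockout 2 and knockout 3 held the highest value of 28 and 17 (19.1% and 17.5% of all tested genes). The 3 libraries labelled knockout thus lay above the 3 controls, with knockout 1 nearest to them.

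**Figure D2:**
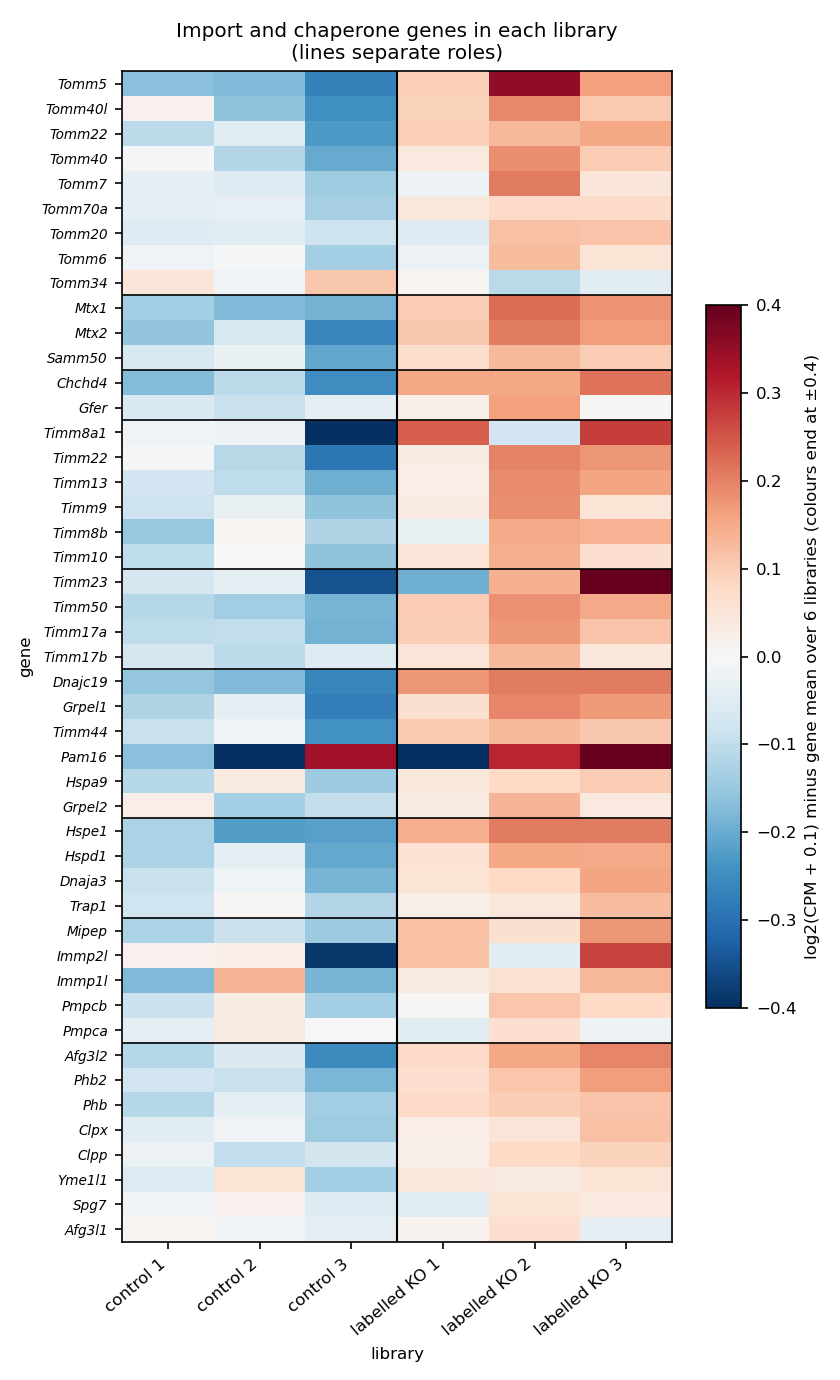
Each row is 1 of the 47 genes, each column a library, and colour gives log2(CPM + 0.1) minus the gene's mean over the 6 libraries, with colours ending at ±0.4. Most rows are blue in the 3 controls, deepest in control 3, and red in the libraries labelled knockout, palest in knockout 1; Pam16, near 1 CPM, follows no such order.

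Markers of fat cells differed between the groups too, unevenly. The mean deviation of 12 adipocyte markers was −0.06, −0.04 and −0.26 in controls 1, 2 and 3 and 0.01, 0.20 and 0.16 in knockout 1, 2 and 3, and that of 12 brown and beige markers −0.15, −0.09 and −0.27, then 0.09, 0.26 and 0.18. That of 11 tested preadipocyte and fibroblast markers was 0.06, −0.03 and 0.28 in the controls and −0.04, −0.21 and −0.06 in the libraries labelled knockout. Summed levels overlapped between the groups for adipocyte markers (11535 to 13776 CPM, then 13005 to 14945 CPM) and for preadipocyte and fibroblast markers (12239 to 14152 CPM, then 12145 to 12662 CPM), but not for brown and beige markers (711 to 863 CPM, then 1163 to 1349 CPM). Of the adipocyte markers 4 of 12 rose and 0 fell, and Lpl and Cfd had log2 fold changes of −0.16 and −0.17. Of the brown and beige markers 8 of 12 rose and 1, Elovl3, fell. Of the preadipocyte and fibroblast markers 4 of 11 fell and 1 rose, Dlk1, at 1.65-fold (adjusted p 0.00363), while 6 did not pass. The part of the cells' makeup in the rise of the import genes was not tested, and in bulk RNA a larger number of cells with much of a transcript cannot be told apart from more of it per cell.

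**Figure D3:**
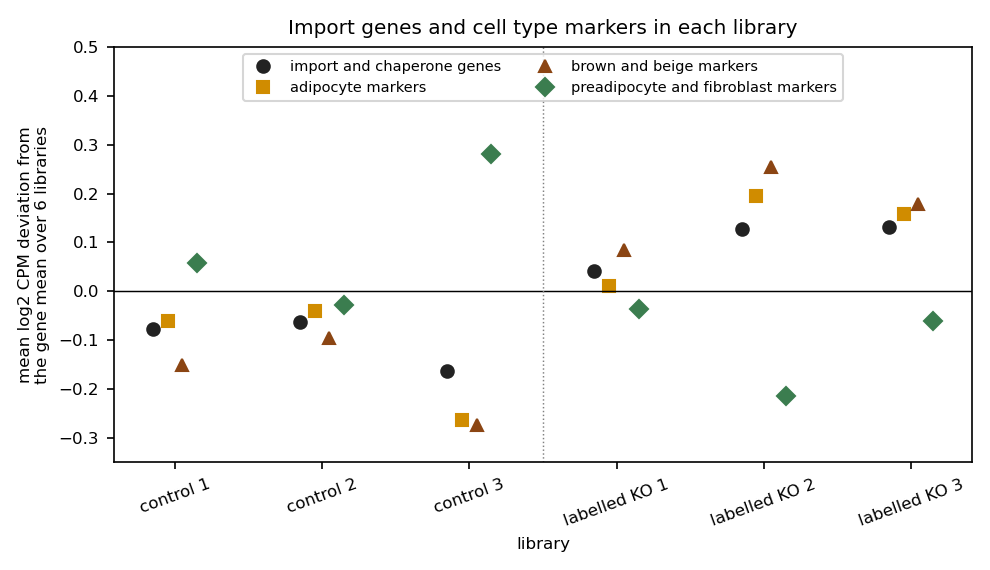
Mean log2 CPM deviation (y axis) of the import and chaperone genes and of 3 marker lists in each of the 6 libraries (x axis). Import genes, adipocyte markers and brown and beige markers are lowest in control 3, where preadipocyte and fibroblast markers are highest at 0.28.

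Promoter windows of these genes were read because so many moved together; they run from 250 bases before to 50 bases after each start and come from RefSeq (GRCm38.p6, while the counts were made on mm9). Of the 47 genes, 41 matched by symbol; Afg3l2, Grpel2, Hspa9, Tomm40l, Tomm7 and Tomm70a did not. CCGGAAG is the core bound by ETS-family factors such as GABP, a regulator known for nuclear genes of mitochondria, and was searched on both strands. This core was found for 16 of the 41 (39.0%), against 20.0% of 8924 tested genes with a window and 9.93% of all 27025 genes with a window. It stood in 8 of the 20 matched genes that rose and in 8 of the 21 that did not pass. A heat shock element, of GAA, TTC and GAA each 2 bases apart, was found for Hspd1, Hspe1 and Timm9 (7.32%, against 0.594% of tested genes), and TCAAGGTCA, bound by ERR receptors, for Timm8b alone (2.44%, against 0.359%). Of the NRF1 motif only the exact form with GCGC on both sides of AT was searched. That form and TGATGCAA, a CHOP and ATF type of motif, were in the windows of 0 of the 41 genes, against 2.44% and 0.740% of tested genes. Other forms of the NRF1 motif were not counted, so these shares do not show that such sites are lacking. A match is only a run of letters, and its absence says nothing of binding.

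The windows below show this range, with matches to any of these motifs in capitals, 5′ to 3′ on the gene's strand. Hspe1 and Hspd1 lie head to head and their windows share 285 bases. In the Hspe1 window (chr1:55087898-55088197, + strand) 2 heat shock matches and 2 ETS matches run into each other. That stretch lies in the shared bases, so the heat shock and ETS shares above count it for both genes. Tomm22 (chr15:79670618-79670917, + strand), which rose, holds 3 ETS matches, and so does Yme1l1 (chr2:23156255-23156554, + strand), which did not pass the threshold. Chchd4 (chr6:91473374-91473673, − strand) was among the 8 genes that passed in every alternative, and its window holds no match to the motifs as searched. It does contain gcgcgtgcgc, which differs in a single base from the NRF1 form searched.
Hspe1: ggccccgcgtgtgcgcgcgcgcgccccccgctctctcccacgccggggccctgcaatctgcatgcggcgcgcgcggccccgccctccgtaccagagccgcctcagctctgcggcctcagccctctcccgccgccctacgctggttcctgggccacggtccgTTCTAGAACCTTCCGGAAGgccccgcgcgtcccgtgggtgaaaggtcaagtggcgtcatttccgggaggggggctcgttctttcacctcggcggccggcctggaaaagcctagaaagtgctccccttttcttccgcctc
Tomm22: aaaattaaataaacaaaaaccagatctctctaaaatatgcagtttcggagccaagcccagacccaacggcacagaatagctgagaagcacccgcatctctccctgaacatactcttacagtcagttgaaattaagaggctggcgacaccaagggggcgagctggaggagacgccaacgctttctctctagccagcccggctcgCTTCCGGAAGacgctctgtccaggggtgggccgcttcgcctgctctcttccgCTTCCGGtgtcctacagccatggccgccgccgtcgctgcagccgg
Yme1l1: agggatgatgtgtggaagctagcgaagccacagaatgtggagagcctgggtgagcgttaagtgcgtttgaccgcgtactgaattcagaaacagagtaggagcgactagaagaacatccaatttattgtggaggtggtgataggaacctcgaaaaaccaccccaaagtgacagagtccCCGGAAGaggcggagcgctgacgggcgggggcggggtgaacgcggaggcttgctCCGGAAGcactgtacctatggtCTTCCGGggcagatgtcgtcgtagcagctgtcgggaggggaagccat
Chchd4: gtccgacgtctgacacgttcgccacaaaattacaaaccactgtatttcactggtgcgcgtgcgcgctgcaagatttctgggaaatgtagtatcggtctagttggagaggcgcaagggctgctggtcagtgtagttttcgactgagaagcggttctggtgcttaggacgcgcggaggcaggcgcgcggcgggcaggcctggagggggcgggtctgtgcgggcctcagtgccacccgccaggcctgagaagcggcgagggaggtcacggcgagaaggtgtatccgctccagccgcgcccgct

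At the outer membrane, the TOM genes rose in part: 4 of 9 did, Tomm5, Tomm22, Tomm40l and Tomm40, with a median log2 fold change of 0.16 over the 9. Tomm5, a small subunit that steadies the pore, was at 20.3, 20.2 and 18.9 CPM in controls 1, 2 and 3 and 24.4, 29.2 and 25.6 CPM in knockout 1, 2 and 3. The groups were apart, with knockout 2 the highest, and the log2 fold change of 0.41 (SE 0.0796, adjusted p 0.00778) was the largest of the 47. Tomm22, the receptor that hands precursors to the pore, was at 116.8, 121.6 and 107.1 CPM and at 134.2, 137.4 and 139.8 CPM (log2 0.25, SE 0.0507, adjusted p 0.00930). Control 3 was lowest here, and the groups again did not overlap.

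The pore gene Tomm40 was at 179.9, 167 and 157 CPM in the controls and 186, 206 and 194 CPM in the libraries labelled knockout (log2 0.22, adjusted p 0.0300), and its paralog Tomm40l at 62.1, 54.9 and 51.7, then 65.3, 70.2 and 66.0 CPM (log2 0.26, adjusted p 0.0296). In both genes control 1 came close to knockout 1. Tomm40l shares 64.3% of its exon bases with Nr1i3 on the opposite strand, so its value is uncertain where strand was not used. Tomm34, a cytosolic co-chaperone that binds Hsp70 and Hsp90, was the 1 gene with a negative value, at 30.2, 28.9 and 31.4 CPM and 29.4, 27.1 and 28.3 CPM (log2 −0.09, 95% interval −0.23 to 0.04, adjusted p 0.354). Its groups overlapped. The presequence receptor Tomm20, the carrier receptor Tomm70a and the small subunits Tomm6 and Tomm7 had log2 fold changes of 0.12, 0.13, 0.11 and 0.16 and did not pass (adjusted p 0.0615 to 0.294). Tomm6 shares 76.0% of its exon bases with the overlapping Gm21981 on the same strand, listed in the count table as Prickle4. That row nearly repeats Tomm6, at 96.4 ± 4.62 and 103.3 ± 5.06 CPM beside 95.4 ± 4.61 and 102.6 ± 5.33 CPM for Tomm6 (controls, then libraries labelled knockout). Both rows may count the same reads. The calls for Tomm22 (without knockout 3, adjusted p 0.0550), Tomm40 (leaving out control 2, control 3, knockout 2 or knockout 3, 0.0507 to 0.114) and Tomm40l (without any library but control 1, 0.0506 to 0.102) were lost, and Tomm70a passed without control 2 (0.0456) or with length offsets (0.0364).

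All 3 SAM genes rose. Mtx1, a metaxin that helps hand barrel proteins to SAM, was at 44.3, 43.0 and 42.7 CPM in the controls and 52.2, 56.8 and 55.1 CPM in the libraries labelled knockout (log2 0.34, SE 0.0491, adjusted p 0.00203). The controls differed by under 2 CPM and lay well below the other group. Its partner Mtx2 was at 104.2, 111.6 and 97.0 CPM and at 125.3, 134.3 and 130.8 CPM (log2 0.32, SE 0.0547, adjusted p 0.00440), and Samm50, the barrel-shaped core that inserts other barrels, at 227.5, 233.4 and 206.0 CPM and at 249.7, 260.4 and 255.5 CPM (log2 0.20, adjusted p 0.0268). Control 3 was the lowest library for all 3 genes. The value of Mtx1 is uncertain where strand was not used: 21.2% of its exon bases overlap Gm43737 (not analysed here) and 8.87% overlap Thbs3, both on the opposite strand, and 20.8% of its 50-base words occur in other genes. Thbs3 had a log2 fold change of −0.28 (adjusted p 0.262). Samm50 no longer passed when control 1, control 3, knockout 2 or knockout 3 was left out (0.0587 to 0.107).

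Of the disulphide relay between the membranes, the oxidoreductase gene rose and its reoxidizing partner did not pass. Chchd4, which encodes MIA40, was at 38.6, 40.4 and 36.6 CPM in the controls and 48.4, 48.5 and 50.6 CPM in the libraries labelled knockout (log2 0.35, SE 0.0530, adjusted p 0.00224). The gap between the groups was wider than the spread in either. Gfer, the sulphhydryl oxidase that passes the electrons on, was at 25.2, 24.6 and 25.6 CPM and at 26.6, 29.4 and 26.3 CPM (log2 0.13, 95% interval −0.02 to 0.27, adjusted p 0.240). Its groups did not overlap, but the highest control and the lowest library labelled knockout were under 1 CPM apart. Of the 50-base words of Gfer, 20.6% occur in other genes.

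Among the small TIM chaperones and TIM22, 2 of 6 genes rose and all 6 had positive values, from 0.18 to 0.31 (median 0.22). Timm13, which escorts hydrophobic precursors with Timm8 proteins, was at 91.5, 90.0 and 84.4 CPM in the controls and 98.5, 110.1 and 107.7 CPM in the libraries labelled knockout (log2 0.25, SE 0.0539, adjusted p 0.0130). Timm22, the pore for carrier proteins, was at 39.5, 36.7 and 32.4 CPM and at 40.4, 45.5 and 44.7 CPM (log2 0.27, adjusted p 0.0422), with control 1 within 1 CPM of knockout 1. Timm9 and Timm10, which form the main carrier-escorting complex, had log2 fold changes of 0.19 and 0.18 (adjusted p 0.0693 and 0.0574). Timm8b was at 66.7, 74.5 and 68.1 CPM and at 72.8, 82.3 and 81.6 CPM (adjusted p 0.0805), and its X-linked relative Timm8a1 at 4.68, 4.67 and 3.57 CPM and at 5.61, 4.49 and 5.76 CPM (adjusted p 0.229). Both overlapped between groups. The call for Timm13 was lost without knockout 2 or knockout 3 (0.0543 and 0.0691) while Timm22 failed in fits lacking control 2, control 3, knockout 2 or knockout 3 (0.0581 to 0.156) and with length offsets (0.0514). Timm10 passed without control 2 (0.0218) and Timm8b without control 2 or knockout 1 (0.0324 and 0.0380). With a replicate block they passed too (0.0438 and 0.0370), but with length offsets their adjusted p rose to 0.403 and 0.511. The lowest log2 fold change over the alternatives was 0.07 for Timm10 and 0.06 for Timm8b.

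In the TIM23 channel, Timm50 and Timm17a rose among 4 genes. Timm50, the receptor that keeps the channel shut until a precursor arrives, was at 91.0, 89.3 and 86.5 CPM in the controls and 105.6, 111.7 and 109.3 CPM in the libraries labelled knockout (log2 0.29, SE 0.0437, adjusted p 0.00224). Timm17a was at 131.5, 131.9 and 123.8 CPM and at 151.2, 159.1 and 152.8 CPM (log2 0.26, SE 0.0435, adjusted p 0.00426). In both the groups were far apart for their spread. Timm17b, the other form of this channel subunit, was at 26.5, 25.8 and 26.8 CPM and at 28.7, 30.4 and 28.6 CPM (log2 0.15, 95% interval 0.02 to 0.28, adjusted p 0.130). Timm23, the pore itself, was counted at only 2.26, 2.30 and 1.84 CPM and 2.06, 2.63 and 3.42 CPM (adjusted p 0.332), with overlapping groups. Of its 50-base transcript words, 57.5% also occur in transcripts of 46 other annotated genes, so its counts are uncertain.

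In the motor that pulls chains into the matrix, 3 of 6 genes rose. Dnajc19, a J protein of the motor, was at 13.2, 13.0 and 12.3 CPM in the controls and 16.6, 17.0 and 17.0 CPM in the libraries labelled knockout (log2 0.40, SE 0.0755, adjusted p 0.00730). Both groups were tight. Grpel1, the nucleotide exchange factor, was at 278.7, 295.9 and 250.6 CPM and at 316.5, 346.7 and 341.4 CPM (log2 0.28, SE 0.0612, adjusted p 0.0130), and Timm44, the scaffold that ties the Hsp70 to the channel, at 122.3, 128.9 and 110.1 CPM and at 139.9, 142.4 and 140.2 CPM (log2 0.23, adjusted p 0.0223). Control 3 was again lowest in both. Grpel2, the paralog of Grpel1, was at 34.6, 30.9 and 31.8 CPM and at 34.7, 37.3 and 34.8 CPM (log2 0.13, adjusted p 0.189); control 1 and knockout 1 almost met.

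The mitochondrial Hsp70 gene itself, Hspa9, did not pass (log2 0.15, 95% interval 0.02 to 0.28, adjusted p 0.137), at 2586, 2867 and 2529 CPM and at 2883, 2959 and 3001 CPM. Control 2 nearly reached knockout 1, and without control 2 the gene passed (adjusted p 0.0165). Pam16, a regulator of the J proteins, lay at 0.474 to 0.919 CPM in the controls and 0.499 to 1.00 CPM in the other group (adjusted p 0.767), too low to show a difference of this size; 35.7% of its 50-base words occur in other genes. The call for Grpel1 was lost without knockout 2 or knockout 3 (0.0542 and 0.0712) and that for Timm44 without control 1 or any library labelled knockout (0.0509 to 0.0829). Tada2b, which overlaps 11.6% of the exon bases of Grpel1 on the opposite strand, had a log2 fold change of 0.17 (adjusted p 0.0622).

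The chaperonin genes of the matrix both rose. Hspe1, which encodes the Hsp10 lid, was at 34.2, 32.0 and 32.2 CPM in the controls and 41.3, 43.2 and 43.2 CPM in the libraries labelled knockout, and had the smallest adjusted p of the 47 genes (log2 0.38, SE 0.0535, adjusted p 0.00179). Hspd1, the Hsp60 barrel, was at 488.8, 520.6 and 463.2 CPM and at 554.9, 594.6 and 593.2 CPM (log2 0.24, SE 0.0525, adjusted p 0.0132). Neither overlapped between groups, and the difference between the 2 fold changes was not tested. Of their 50-base words, 22.8% (Hspe1) and 42.1% (Hspd1) occur in other annotated genes, and 6 and 5 pseudogenes carry their names, so reads may be missing or shared. Dnaja3, a J protein of the matrix, was at 244.7, 257.0 and 228.5 CPM and at 270.1, 275.1 and 290.1 CPM (log2 0.19, adjusted p 0.0304). Trap1, the mitochondrial Hsp90, was at 308.8, 327.4 and 300.7 CPM and at 331.1, 336.4 and 355.2 CPM and did not pass (log2 0.13, adjusted p 0.106). Hspd1 did not pass when control 1, knockout 2 or knockout 3 was left out (0.0548 to 0.0781), nor Dnaja3 when 1 of these or control 3 was (0.0733 to 0.153); Trap1 passed without control 2 (0.0385).

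**Figure D4:**
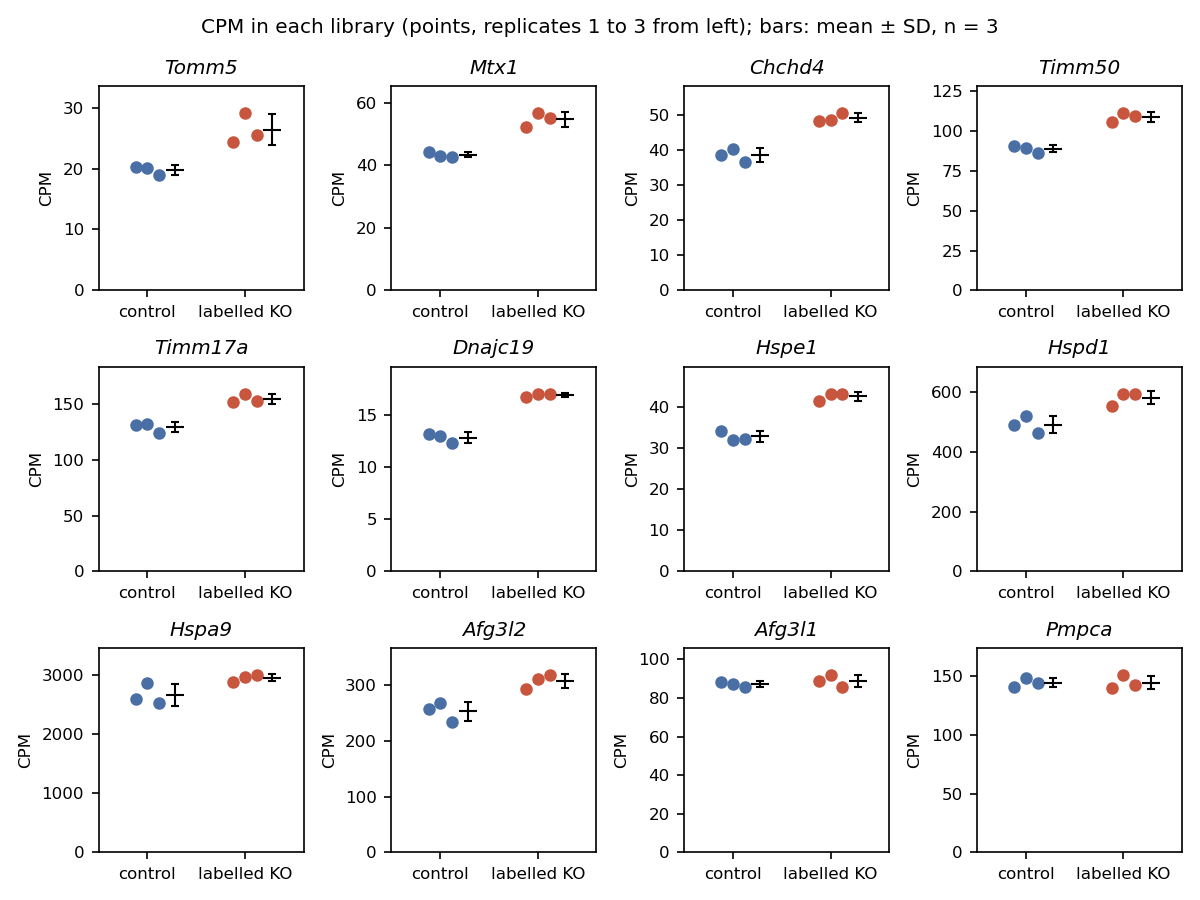
CPM (y axes, from 0) of 12 genes in each library, points from left being replicates 1 to 3, with mean ± SD (n = 3) beside them. Tomm5, Mtx1, Chchd4, Timm50, Timm17a, Dnajc19 and Hspe1 show clear gaps between the groups, while Afg3l1 and Pmpca overlap.

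Of the peptidases that cut off import signals, 1 of 5 rose, with a median of 0.15. Mipep, which trims a further stretch from some precursors after the main cut, rose from 33.2, 34.2 and 32.8 CPM to 39.3, 37.9 and 41.0 CPM (log2 0.24, SE 0.0540, adjusted p 0.0158). Pmpca, a subunit of the processing peptidase that makes that main cut, was at 140.7, 148.0 and 144.3 CPM and at 139.7, 151.1 and 142.4 CPM. Its log2 fold change was 0.00 with a 95% interval of −0.10 to 0.10 (adjusted p 0.996). The catalytic subunit Pmpcb had a log2 fold change of 0.13 (adjusted p 0.127) and passed without control 2 (0.0299). Of the inner membrane peptidase, Immp1l was at 12.1, 15.0 and 12.0 CPM and at 14.0, 14.2 and 15.0 CPM (adjusted p 0.359), and Immp2l at 7.73, 7.78 and 5.82 CPM and at 8.29, 7.40 and 9.24 CPM (adjusted p 0.301), all overlapping. Of the 50-base words of Immp1l, 33.8% occur in another gene. The call for Mipep was lost without control 1 or knockout 3 (0.0577 and 0.0843).

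Of the quality control proteases and their prohibitin scaffold, 3 of 8 genes rose. Afg3l2, a subunit of the m-AAA protease of the inner membrane, was at 257.8, 268.1 and 233.8 CPM in the controls and 294.4, 310.7 and 319.3 CPM in the libraries labelled knockout (log2 0.28, SE 0.0552, adjusted p 0.00828). The groups were apart, with control 3 lowest. Its relative Afg3l1 stood at 88.5, 87.3 and 85.7 CPM and at 88.9, 92.1 and 85.6 CPM (log2 0.03, 95% interval −0.07 to 0.13, adjusted p 0.743), and Spg7, the third subunit gene of this family, had a log2 fold change of 0.03 (adjusted p 0.716). The prohibitins, which form rings around these proteases, both rose: Phb2 was at 280.2, 277.8 and 260.4 CPM and at 309.3, 318.7 and 331.9 CPM (log2 0.23, SE 0.0458, adjusted p 0.00913), and Phb at 36.9, 38.9 and 36.2 CPM and at 42.2, 42.8 and 43.3 CPM (log2 0.20, adjusted p 0.0297). Of the words of Phb, 30.3% occur in other genes. The matrix protease Clpp and its unfolding partner Clpx (both log2 0.13, adjusted p 0.0883 and 0.0998) and the i-AAA protease Yme1l1 (0.09, adjusted p 0.273) did not pass. The calls for Afg3l2 and Phb2 were lost without knockout 3 (0.0554 and 0.0642), and that for Phb without any library but control 2 (0.0592 to 0.119) and with DESeq2 (0.118).

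For 6 pairs of related genes the ratio within each library was compared between groups, as the difference in log2 CPM, which library scaling does not touch. Afg3l1 minus Afg3l2 was −1.54, −1.62 and −1.45 in the controls and −1.73, −1.75 and −1.90 in the libraries labelled knockout, a shift of −0.26 towards Afg3l2. Timm17a minus Timm17b was 2.30, 2.35 and 2.20, then 2.39, 2.39 and 2.41, a shift of 0.11 towards Timm17a. In these pairs the groups did not overlap, and the exact two-sided permutation p was 0.1 (0.30 adjusted over the 6 pairs), a floor set by having 3 libraries on each side. The shifts were 0.15 for Grpel1 over Grpel2 and −0.04 for Tomm40 over Tomm40l (exact permutation p = 0.3 for both), 0.11 for Timm8a1 over Timm8b (exact p = 0.5) and −0.08 for Immp1l over Immp2l (exact p = 0.7). With 3 libraries a group, none of these pairs could reach 0.05.

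Levels can be set side by side only per length, for which the authors' deposited FPKM values, rounded to whole numbers, were used. Hspa9 was the highest of the 47 in the controls, at 679.7 ± 40.3, followed by Hspd1 at 187 ± 9.02, Samm50 at 133 ± 7.37 and Timm8b at 133 ± 7.21 (SD, n = 3). The order rests on the lengths the authors used, which are not given in the sources used: for Samm50 control CPM per kilobase of GENCODE M21 exon came to 33.9, against 135 for Timm8b, 186 for Hspd1 and 617 for Hspa9. Deposited values exceeded CPM per kilobase by over 1.5 times for 10 of 46 genes. On the deposited scale Samm50 and Timm8b did not differ beyond their spread, and Trap1 (121 ± 4.16) and Tomm22 (104 ± 5.57) came next. At the low end Pam16 and Timm23 were listed at 1 in every control, and Dnajc19 and Timm8a1 at 3. Subunits of 1 complex could lie far apart, as with Hspd1 and Hspe1 (22.3 ± 0.577) or Phb2 (73.3 ± 2.08) and Phb (13.3 ± 0.577); Hspd1, Hspe1, Phb, Pam16, Timm23 and Timm8a1 share 22.8% to 57.5% of their words with other genes.

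Other genes of the same pathway, from lists of known roles drawn up with earlier results of these data known, were counted in the same fit. Of 12 tested import partners outside the named set, 6 rose and 0 fell (8 and 0 at an unadjusted p under 0.05; 5 and 0 with DESeq2, 6 and 0 with limma-voom), with a median of 0.18. Dnajc15, a second J protein of the motor, rose 1.26-fold, the outer membrane insertase gene Mtch2 1.18-fold and Dnajc11, a J protein that binds SAM, 1.20-fold (adjusted p 0.00668, 0.00804 and 0.00828). Without knockout 3 the call for Mtch2 was lost (0.0566) and 2 partners rose; 3 rose without control 3 or knockout 2, and 4 without control 1.

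Genes for proteins that the disulphide relay traps between the membranes had the highest median of the 6 further pathway lists. Of 15 tested genes 9 rose and 0 fell (12 and 0 at an unadjusted p under 0.05; 10 and 0 with DESeq2, 9 and 0 with limma-voom), with a median log2 fold change of 0.32. Chchd10 rose 1.45-fold, from 137.6 ± 4.18 to 198.8 ± 4.06 CPM (adjusted p 4.29e-05), the cristae gene Chchd3 1.36-fold, from 253.7 ± 18.7 to 344.4 ± 17.8 CPM, and Chchd7 1.33-fold, from 27.0 ± 0.409 to 35.9 ± 1.23 CPM. Several of these genes encode respiratory chain subunits, so the list is not one of import alone.

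Further proteases and stabilizers were mixed, with 3 rises and 1 fall, where 6.91% of all tested genes rose and 5.44% fell. Among 12, the AFG1-type ATPase gene Lace1 (1.28-fold, adjusted p 0.00701), Stoml2, a prohibitin-related gene (1.14-fold, 0.0306), and Atad3a (1.14-fold, 0.0335) rose, and Pitrm1, which degrades cut-off presequences, fell (log2 −0.15, 0.0345). Lonp1, the main soluble protease of the matrix, was at 1002 ± 82.3 and 999.6 ± 20.8 CPM (log2 −0.00, adjusted p 0.975). The rises numbered 1 without control 1, control 3 or knockout 3, and the call for Pitrm1 was lost without any 1 library (0.0521 to 0.169), with DESeq2 (0.0818) and with the replicate block (0.0582). The calls for Stoml2 (lacking control 1, control 3, knockout 2 or knockout 3, 0.0863 to 0.116, and with DESeq2, 0.0766) and Atad3a (lacking control 1, control 3, knockout 1 or knockout 3, 0.0827 to 0.128) were lost as well.

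At the adjusted threshold, counts for chaperones outside mitochondria, in lists of this size, were near those of all tested genes (6.91% rose and 5.44% fell). At an unadjusted p under 0.05 the shares of all tested genes were 14.5% and 13.4%. Of 17 cytosolic chaperones that keep precursors unfolded, 0 rose and 1 fell (1 and 3 at an unadjusted p under 0.05; 0 and 0 with DESeq2, 0 and 1 with limma-voom), with a median of −0.00. The 1 that fell was Ubqln2, a ubiquilin (log2 −0.22, adjusted p 0.0115, 0.0684 without knockout 3 and 0.0526 with DESeq2); Hspa8, the constitutive Hsp70, was at 299 ± 7.87 and 316 ± 16.3 CPM (adjusted p 0.306). Of 14 chaperones of the endoplasmic reticulum 0 rose and 0 fell (0 and 3 at an unadjusted p under 0.05; 0 and 0 with DESeq2 and limma-voom), with a median of −0.07, and Hspa5, the Hsp70 of that compartment, was at 799.2 ± 12.3 and 737.7 ± 17.8 CPM (adjusted p 0.106). Without knockout 1 the falls among cytosolic chaperones numbered 2, and without control 2 there was 1 among those of the endoplasmic reticulum. In the endoplasmic reticulum list 11 of 14 genes had negative values. Every library labelled knockout was below every control in 5 of the 14 and above in 0, against 15.8% and 16.0% of all tested genes. Among the 17 cytosolic chaperones these counts were 2 and 2. The difference between these lists and the mitochondrial genes was not tested.

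Of 15 tested genes of the stress response to failing import, 2 rose (13.3%) and 1 fell (6.67%), against 6.91% and 5.44% of all tested genes. At an unadjusted p under 0.05, 4 were higher and 1 lower, against 14.5% and 13.4% of all tested genes. The mean deviation of the list was −0.05, −0.03 and −0.02 in controls 1, 2 and 3 and 0.04, 0.02 and 0.04 in knockout 1, 2 and 3. Atf5, a transcription factor of the mitochondrial unfolded protein response, rose 1.17-fold, from 268.2 ± 9.46 to 312.6 ± 3.66 CPM (adjusted p 0.00717), Mthfd2 rose 1.11-fold (0.0312) and Psat1 fell (log2 −0.15, 0.0299). Atf4 was at 314 ± 14.6 and 312.1 ± 9.63 CPM (adjusted p 0.921), Ddit3, which encodes CHOP, at 152 ± 3.96 and 155 ± 7.98 CPM (0.812), and Fgf21 at 2.96 ± 0.900 and 3.43 ± 0.159 CPM (0.489). The median over the list was 0.02. The call for Mthfd2 was lost without any 1 library (0.0530 to 0.125), with DESeq2 (0.0631) and with the replicate block (0.0569), and that for Psat1 without control 1 or any library labelled knockout (0.0716 to 0.127) and with the block (0.0574).

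**Figure D5:**
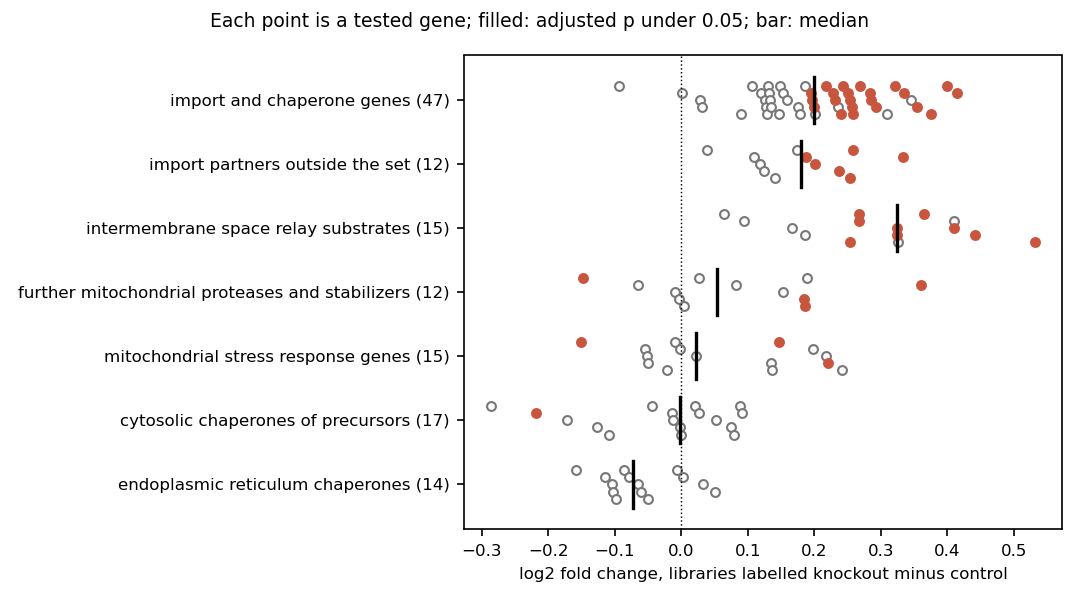
Log2 fold change (x axis) of each tested gene in the import and chaperone set and 6 further lists (rows, number tested in brackets); filled points passed the threshold and bars are medians. The medians run from 0.32 for relay substrates and 0.20 for the import and chaperone genes to −0.07 for chaperones of the endoplasmic reticulum.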

How the data were processed

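Poly(A) RNA of 6 samples, 3 per group, was sequenced from stranded libraries, per the labels' protocols. The authors deposited read counts per gene and FPKM values rounded to whole numbers, per the file headers; the authors' rounding makes the latter a score, used here only to set levels of genes side by side. The submitters' processing notes name Novoalign 2.8, Picard, DESeq2 and build mm9; no read counter, annotation or strand setting was given in the sources used here. Every gene listed has at least 10 counts in some library. Counts were tested with edgeR 4.0.16 (R 4.3.3): expression filter by group, TMM scaling, quasi-likelihood test, Benjamini-Hochberg adjustment over 13192 genes, threshold 0.05; the fit was tested on simulated data. SEs are the fold change over the square root of F; ratios use log2 CPM with a prior count of 2. The alternatives were DESeq2 1.42.0, limma-voom 3.58.1, RLE or library-size scaling, no filter or a mean of 5 CPM, exon length offsets, a replicate block and leaving out each library. Exon lengths, overlaps and 50-base words come from GENCODE M21 by gene ID (13506 of 13962). Within groups, libraries differed beyond sampling noise (chi-square per degree of freedom 2.88 to 7.53). Members and lists were chosen with earlier results of these data known. Genes with values in every library were, per role, up to 3 changed genes of smallest adjusted p, the gene of largest p, the 6 pairs, Hspd1 and Hspe1; Hspa9 and a few others were added after their values were seen.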

Additional observations from a re-analysis of the deposited data

How the results depend on the processing

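Across the 8 alternatives that keep all 6 libraries, the import and chaperone genes that rose numbered 21 to 24, 0 fell, and their median log2 fold change ran from 0.18 to 0.20. Leaving out 1 library each gave 8 to 25 rises, 0 falls, a median of 0.16 to 0.23, 632 to 1895 genes changed in all, and 12 to 22 changed in the other pathway lists; such fits have fewer samples to test with. Of the 22 rises, 8 held in all 14 alternatives; 19 of the 25 other genes passed in none, and 6 passed in at least 1. With the replicate block, 24 import genes rose, 0 fell and 20 genes of the other lists changed, with 1809 genes changed in all. Same-numbered samples correlated in their deviations at −0.04, 0.19 and 0.03, and not every sample correlated best with its own number. Deviations within a group sum to 0, which ties these correlations to each other. They therefore cannot show whether same-numbered samples shared a culture or day. With library size alone the median of all tested genes was −0.02. Shorter genes leaned upward: the median was 0.06 in the group of shortest exon length and −0.03 in that of the longest. For the import genes in these groups it was 0.21 and 0.20. Length offsets gave the highest adjusted p of any alternative for Tomm6, Tomm7, Timm8b, Timm10, Clpp and Immp1l (0.403 to 0.847). The lowest log2 fold changes of these genes over the alternatives were 0.02 to 0.07. Among the pairs, the shift of Immp1l and Immp2l ran from −0.19 without control 1 to 0.0029 without control 3, where its sign turned; the shifts of the other 5 pairs kept their sign. Of the genes that did not pass, Pmpca took both signs across alternatives. The paired values of the shifts equal the unpaired ones. Genes near 1 CPM rest on few reads.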

Other observations

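Genes that share exon bases with an import gene were looked at after the values were seen, since the strand setting of the counts is not given in the sources used here. In GENCODE M21, 21 of the 47 genes share exon bases with another gene, 7 of them over 10% with a single gene. Of these neighbours, 13 outside the set were tested, among them Gm21981, whose values nearly repeat those of Tomm6. Of the 13, edgeR called 0 at the adjusted threshold, beside 12.3% of all tested genes. At an unadjusted p under 0.05 there were 3, all higher, beside 14.5% of all tested genes higher and 13.4% lower. Those 3 were Nit2, beside Tomm70a (log2 0.19, adjusted p 0.0501), Tada2b, beside Grpel1, and Coro7, beside Dnaja3 (log2 0.17, adjusted p 0.134). Inpp5e, a phosphatase gene that overlaps 20.4% of Pmpca, was at 20.8 and 20.5 CPM, and Glis2, which overlaps 18.7% of Pam16, at 35.5 and 34.2 CPM, in controls and libraries labelled knockout.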
